A study of Homo sapiens with 12 samples.

Results

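AGO2 is phosphorylated and dephosphorylated in a cycle. Here 4 genes of that cycle or of its kinase family were examined for regions bound by AGO2 itself: ANKRD52, PPP6C, CSNK1A1 and CSNK1E. The regions described are the AGO2-bound regions that overlap the RefSeq span of one of the 4 genes on the gene's own strand. The rule found 16 of 2921 regions in cells with 5xA AGO2 and 10 of 1190 regions in cells with wild-type AGO2, 26 of 4111 in all. Of the 4 genes, 2 held a region: ANKRD52 in both lists and CSNK1E with 5xA only. All CSNK1E regions also lie in the overlapping gene TPTEP2-CSNK1E. Of all protein-coding genes 7.81% held a region in either list, and 57.0% of those held regions with 5xA only.

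Argonaute proteins carry a microRNA that pairs with sites in target mRNAs, mostly in the 3′ part of the message, and then repress them. Casein kinase 1 alpha, the product of CSNK1A1, phosphorylates a cluster of residues near the carboxy terminus of AGO2 once it is on a target. A protein phosphatase 6 complex made of the catalytic subunit PPP6C and the ankyrin repeat subunit ANKRD52 takes the phosphates off again. CSNK1E encodes casein kinase 1 epsilon, a relative of CSNK1A1 best known for phosphorylating the period clock proteins and Dishevelled.

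The data came from eCLIP, in which ultraviolet light fixes RNA to protein, the protein is immunoprecipitated and the attached RNA is read by sequencing. HCT116, an established line of human colorectal carcinoma, was used in 3 genotypes: with the tagged mutant FH-AGO2 5xA, in which alanines replace the phosphorylated residues, with tagged wild-type FH-AGO2, and with AGO2 knocked out as a control. Crosslinking at 400 mJ/cm2 followed 48 h of culture, and immunoprecipitates (IPs) were made with anti-FLAG antibody. Each genotype had 2 inputs and 2 IPs, 12 samples in all. The sources used here do not say how the tagged forms were introduced or whether a line is 1 clone.

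The values compared are 2 lists of regions, 1 for the 5xA IPs and 1 for the WT IPs, each pooled by the authors over its 2 replicates. A region is a stretch of genome, with its strand, in which bound RNA was called; it has no usable strength, because the deposited score is 0 in every row. With 1 list per genotype there is no replicate error and no test between genotypes, so every difference below describes these 2 lists. Depth is unknown, and a gene without a region was not called, which is not the same as not bound. The 5xA list is longer as a whole, with 2.45 times as many regions and 2.35 times as many bases covered, and a gene's 5xA to WT ratio is to be read against that. The inputs and the knockout IPs were not analysed here. Of 11 markers of colorectal epithelium, 2 held a region in either list (CLDN4, and VIL1 in a place that another gene also spans) and EPCAM and CDH1 held none; of 6 fibroblast markers COL1A1 did, and of 5 blood markers 0 did. A region list does not measure expression, so these counts do not check the cell type.

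ANKRD52 carried one of the largest sets of AGO2 regions of any gene in these lists. It held 12 regions with 5xA and 10 with WT. The order of these counts depends on merging: joined within 50 bases they were 7 with 5xA and 8 with WT. The ranks given here are for the lists as deposited and were not recomputed after joining. In the WT list no protein-coding gene held more than ANKRD52, and 1 other, the DNA demethylation gene TET3, held as many. In the 5xA list its rank was 4, after TET3 with 17, the Polycomb gene CBX6 with 14 and the transcription factor gene NFIC with 13. The median over genes with at least 1 region was 1 region in either list, over 1492 protein-coding genes with 5xA and 672 with WT.

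Counted by bases, ANKRD52 stood less far out. Its regions covered 2165 bases with 5xA, rank 8 of 1492 genes, and 1298 bases with WT, rank 15 of 672. Overlapping genes that hold the same regions are each counted in these ranks, as IGF2 and INS-IGF2 are above ANKRD52 with WT. The median gene had 133 bases with 5xA and 135 bases with WT. The number of regions depends on how the authors merged neighbouring signal, whereas the covered bases depend on it less. With the same joining 2334 bases were covered with 5xA and 1345 with WT.

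**Figure D1:**
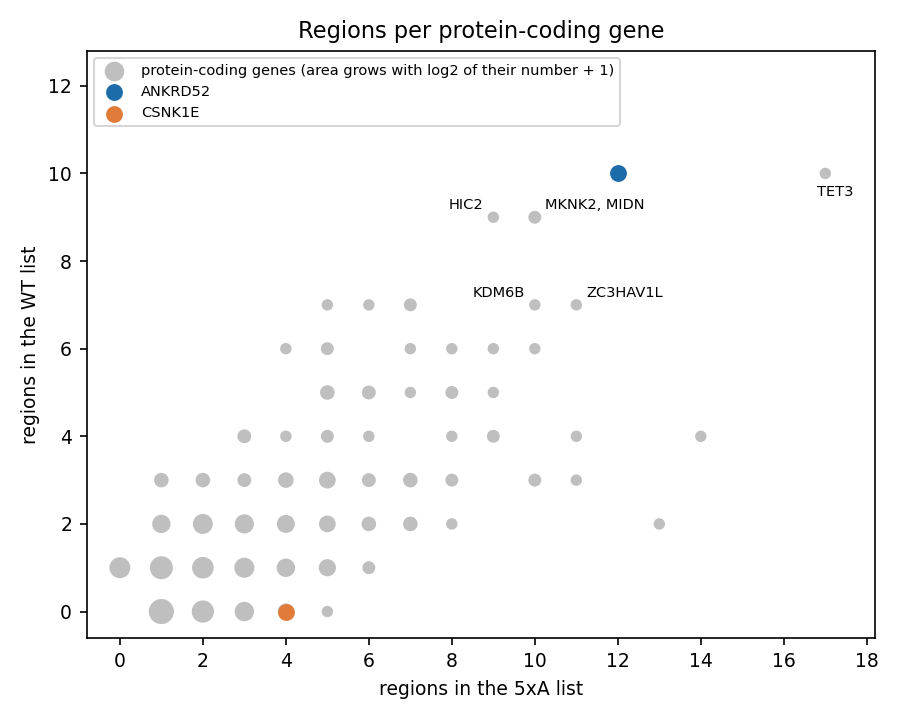
Regions per protein-coding gene, with the number in the 5xA list on the horizontal axis and the number in the WT list on the vertical axis. Each grey point stands for all genes with that pair of counts, and its area grows with their number. ANKRD52 sits at 12 and 10, near the top, and CSNK1E sits at 4 and 0 on the lower edge. The named grey points are TET3 and the 5 genes whose counts are nearest those of ANKRD52.

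All ANKRD52 regions lay in the downstream part of the gene. On hg38 the gene spans 56237807 to 56258384 of chromosome 12, 20578 bases on the minus strand, so its downstream end is the lower coordinate. The regions of both lists together lay within a stretch of 4981 bases, which is 24.2% of the span. The 15297 bases upstream of it, which include the start of the gene, held no region in either list. No other gene overlapped any of these regions on the strand, and no region lay on the opposite strand. Exon boundaries were not used here, so the regions are placed by distance from the gene end and not as 3′ UTR or coding sequence.

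Of 12 5xA regions, 11 had their midpoint within 5 kb of the downstream gene end (91.7%, exact 95% interval 61.5 to 99.8), and so did 9 of 10 WT regions (90.0%, exact interval 55.5 to 99.7). Over all protein-coding genes longer than 10 kb whose strand was known, 79.7% of 5xA regions and 82.1% of WT regions did. The intervals cover counting error only and treat regions as independent, which regions of one mRNA are not. Both intervals include the share over all such genes. Closer to the end the order was the other way. Within 2 kb lay 25% of the 5xA regions and 20% of the WT regions of ANKRD52, where 55.3% of 5xA regions and 58.1% of WT regions of such genes did. The median midpoint in ANKRD52 was 3418 bases from the end with 5xA and 3454 bases with WT, and over such genes it was 1683 and 1596 bases. These differences were not tested.

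Both lists together marked 13 distinct sites on ANKRD52, of which 8 were in both, 4 in the 5xA list alone and 1 in the WT list alone. Of the WT regions 9 of 10 overlapped a 5xA region by at least 1 base (90.0%, exact interval 55.5 to 99.7), where 81.3% of all WT regions did. Of the 5xA regions 8 of 12 overlapped a WT region (66.7%, exact interval 34.9 to 90.1), where 32.3% of all 5xA regions did. Counted by bases, 1134 bases of ANKRD52 were covered in both lists, which is 52.4% of its 5xA bases and 87.4% of its WT bases. Over the whole lists the figures were 34.0% of 5xA bases and 79.9% of WT bases. A gene with many WT regions offers 5xA regions more to overlap, so the higher 5xA share is a description and was not tested.

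The sites fell into 3 blocks separated by gaps of 912 and 734 bases without a region in either list, a split at gaps over 500 bases that was chosen after the positions were seen. The block farthest from the gene end, 3095 to 5280 bases from it, held 7 regions in each list. Its 5xA regions covered 1451 bases and its WT regions covered 985, with 951 bases in common. Here 6 of 7 sites were in both lists and the remaining one was found with 5xA only.

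The middle block, 1680 to 2360 bases from the gene end, held 2 regions in each list but little common ground. The 5xA regions covered 393 bases and the WT regions covered 215, and 85 bases were in both. It contained the single site found with WT only, at chr12:56239487-56239595, 109 bases wide and 147 bases from the nearest 5xA region. The block nearest the gene end, 300 to 767 bases from it, held 3 regions with 5xA and 1 with WT. There the 5xA regions covered 321 bases and the WT region covered 98, all of them also within a 5xA region. The ratio of 5xA to WT bases was thus 3.28 in the block nearest the end, 1.83 in the middle block and 1.47 in the farthest block. The whole lists gave 2.35.

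**Figure D2:**
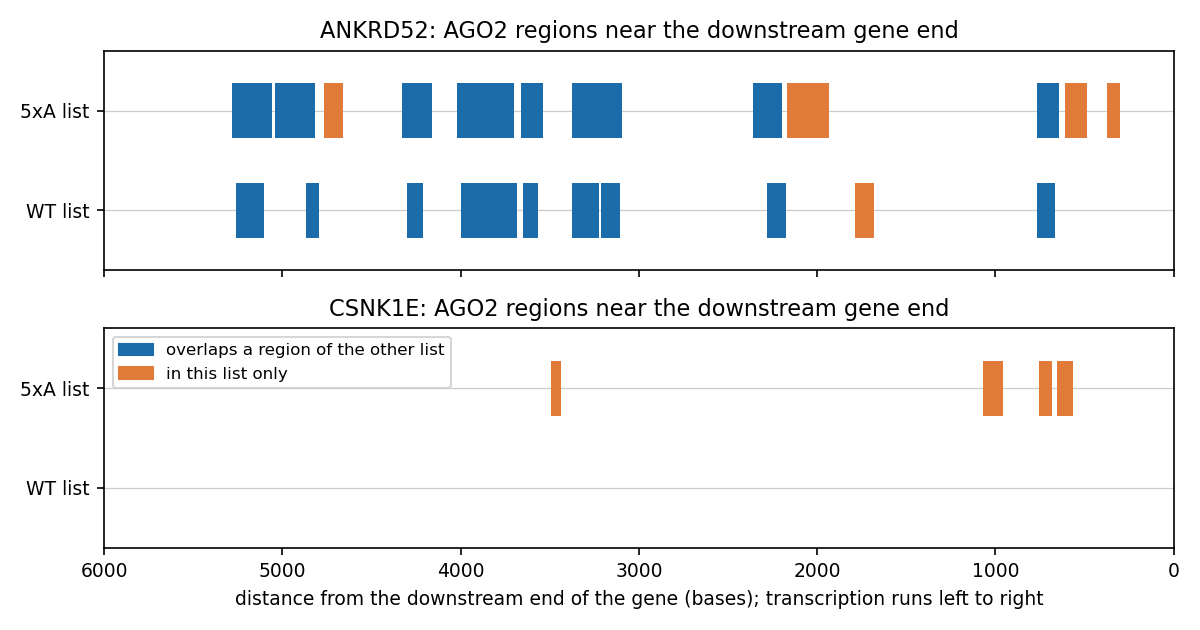
Map of AGO2 regions on ANKRD52 (upper panel) and CSNK1E (lower panel) within 6 kb of the downstream gene end, in bases from that end, with transcription running left to right. In each panel the 5xA list is above the WT list. Blue bars overlap a region of the other list and orange bars do not. ANKRD52 shows 12 bars with 5xA and 10 with WT, mostly blue, and CSNK1E shows 4 orange bars with 5xA and no bar with WT.

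The 4 ANKRD52 regions found with 5xA only were mostly neighbours of WT regions. The region at chr12:56239743-56239973, 231 bases wide, ended 11 bases short of a WT region. Those at chr12:56242469-56242573 (105 bases) and chr12:56238293-56238414 (122 bases) lay 28 and 60 bases from one. The remaining one, at chr12:56238107-56238180, was 74 bases wide, lay 294 bases from any WT region and was the region closest to the gene end in either list, starting 300 bases from it. So 3 of the 4 lay within 100 bases of a WT region, a limit set after seeing them. Of all regions found with 5xA only in protein-coding genes that also hold a WT region, 21.2% (150 of 709) did. Many WT regions lie close together in ANKRD52, which by itself brings more places within that limit. With 4 regions, no comparison with that share was made.

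Where both lists marked a site, the 5xA region was the wider. In 7 cases a 5xA region and a WT region of ANKRD52 overlapped each other alone, and the 5xA region was wider in 7 of 7, by 9 to 153 bases with a median of 56. Over both whole lists, 847 such pairs had a wider 5xA region in 66.8% and a median difference of 14 bases. The greatest difference was at chr12:56242622-56242849 with 5xA, 228 bases, against chr12:56242602-56242676 with WT, 75 bases, which shared 55 bases. The smallest was at the widest regions of the gene, chr12:56241508-56241829 with 5xA, 322 bases, against chr12:56241494-56241806 with WT, 313 bases.

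The centres of the paired regions lay close together. The distance between midpoints was 7.5 to 96.5 bases with a median of 14.5, and the median over all 847 pairs was 11.5 bases. In the remaining shared site, 1 5xA region at chr12:56240902-56241184, 283 bases wide, spanned 2 WT regions, at chr12:56240911-56241021 and chr12:56241031-56241183, which were 9 bases apart. It covered every base of both. ANKRD52 regions had a median width of 165 bases with 5xA (range 74 to 322) and 107.5 bases with WT (range 75 to 313). The medians of the whole lists were 104 bases with 5xA and 114 bases with WT, the opposite order. Over the shared regions of the lists alone they were 145 bases with 5xA and 121 bases with WT, the same order as in ANKRD52. Most ANKRD52 regions were shared, so the whole lists are not a like comparison. A difference in width between pooled lists cannot be told apart from one in depth, threshold or merging.

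**Figure D3:**
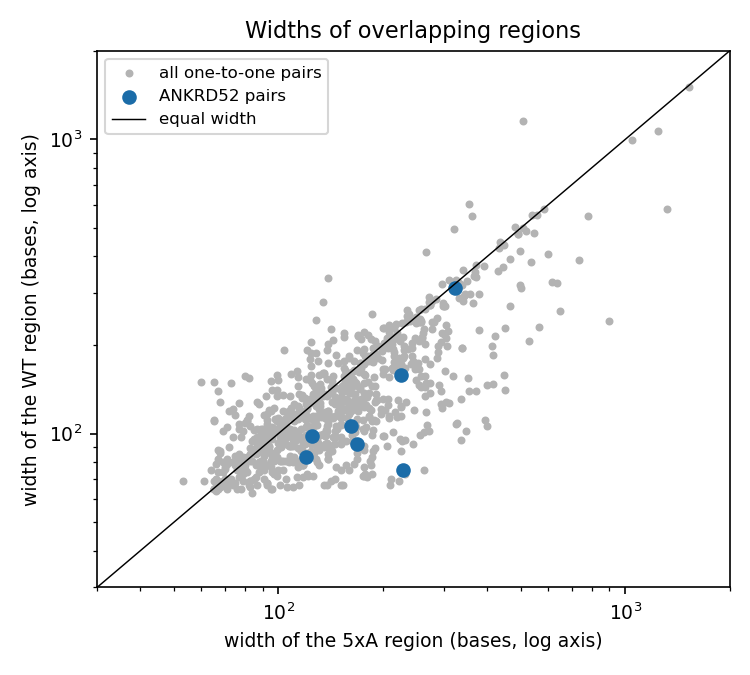
Widths in bases of a 5xA region (horizontal log axis) and the WT region it overlaps (vertical log axis), for the 847 pairs of regions that overlap each other alone (grey) and the 7 such pairs in ANKRD52 (blue). The line marks equal width, and all 7 ANKRD52 pairs lie below it, on the side where the 5xA region is wider.

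Among genes with many WT regions, ANKRD52 lay within the quartiles on each of 3 measures of how the 5xA list compared with the WT list, as deposited. In the 29 protein-coding genes with at least 5 WT regions, the ratio of 5xA to WT regions had a median of 1.17 (quartiles 1.00 and 1.43). ANKRD52 had 1.20. With regions joined within 50 bases it had 0.875, but the median and quartiles were not recomputed after joining, so that value has no like comparison. For covered bases the median ratio was 1.5 (quartiles 1.25 and 1.69), and ANKRD52 had 1.67, with 8 genes above it. The WT list is the denominator of both ratios. Choosing genes by a high WT count thus partly sets how far these ratios lie below those of the whole lists. The share of WT bases also covered with 5xA had a median of 91.7% (quartiles 82.9 and 97.8), and 18 genes lay above the 87.4% of ANKRD52.

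The genes with the most similar counts were chosen by the least Euclidean distance over 3 numbers: regions with 5xA, regions with WT, and WT regions that were shared. MKNK2, a kinase gene for the translation factor eIF4E, and MIDN each had 10 5xA and 9 WT regions, of which 9 were shared (distance 2.24). ZC3HAV1L had 11 and 7, with 7 WT regions shared, and the transcriptional repressor gene HIC2 had 9 and 9, also with 7 shared (distance 3.74 each). The H3K27 demethylase gene KDM6B had 10 and 7, with 7 shared (distance 4.12). The stretch within which the regions lay differed more than their number, from 4519 bases in ZC3HAV1L to 33984 bases in HIC2. In HIC2 alone of these 5 the 5xA regions covered fewer bases than the WT regions, 1472 against 1655.

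PPP6C, the catalytic partner of ANKRD52, held no region in either list. On hg38 the gene spans 125146573 to 125189803 of chromosome 9, 43231 bases on the minus strand. The nearest region on that strand lay 624202 bases outside the gene with 5xA and 624207 bases outside with WT, in both lists in NR6A1. The span was also empty on the other strand.

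CSNK1A1, which encodes the kinase that acts on the AGO2 residues changed in 5xA, held no region in either list. It spans 149492982 to 149551439 of chromosome 5, 58458 bases on the minus strand. The nearest region on that strand lay in SPRY4, an inhibitor gene of growth factor signalling, 7178495 bases away with 5xA and 7179077 bases away with WT. For both genes an extension of the span by 1000 bases beyond the downstream end also found no region. Whether these mRNAs were present at a level at which a region could have been called was not measured in the lists.

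In CSNK1E the 5xA list had 4 regions and the WT list had 0. All 4 were thus found with 5xA only, as were 67.7% of all 5xA regions. The gene spans 38290691 to 38318084 of chromosome 22, 27394 bases on the minus strand, and the nearest WT region lay 69580 bases outside it, in TMEM184B. Having regions with 5xA only was common among genes: of 1564 protein-coding genes with any region, 57.0% were of this kind, 38.4% had regions in both lists, as ANKRD52 did, and 4.60% had them in the WT list alone. Of the 892 genes with 5xA only, 714 held 1 region, 136 held 2, 33 held 3, 8 held 4 and 1, ZNF385A, held 5. Having 4 regions, CSNK1E was among the 9 with most, beside AEN, AKAP12, CUX1, MEX3D, PIAS4 and ZC3H4, which also had 4 and 0. The eighth gene with 4 is TPTEP2-CSNK1E, a readthrough gene that contains CSNK1E on the same strand and holds the same regions. The lists do not separate these 2 genes, so the same 4 regions count for both. Joined within 50 bases CSNK1E had 3 regions, and its place among these genes was not recomputed after joining.

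The CSNK1E regions were 57 to 111 bases wide. At chr22:38291256-38291347 the region was 92 bases wide, at chr22:38291376-38291447 it was 72, and at chr22:38291650-38291760 it was 111. These 3 lay between 565 and 1069 bases from the downstream end. The last, at chr22:38294129-38294185, was 57 bases wide, lay 3438 bases from the end and followed a gap of 2368 bases. All 4 midpoints (100%, exact interval 39.8 to 100) were within 5 kb of the end, where 79.7% of all 5xA regions of long protein-coding genes were. The interval treats the 4 regions as independent, which regions of the same mRNA are not. With only 4 regions it is also too wide to compare with that share, so no conclusion is drawn from it. Together the 4 regions covered 332 bases, where the median of genes with a 5xA region was 133.

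The median width in CSNK1E was 82 bases, against 93 bases over all regions found with 5xA only. The narrowest of the 4 was wider than only 1.57% of all 5xA regions, and the widest was wider than 54.0%. Set against regions found with 5xA only, the 4 were wider than 2.23%, 24.1%, 48.2% and 65.6% of them. In ANKRD52 the 4 regions found with 5xA only had a median of 113.5 bases (range 74 to 231), and the 8 shared 5xA regions had a median of 196.5 bases (range 120 to 322). The chance of meeting the rule for sharing grows with width, so the order of these medians is partly set by that rule.

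Of all 20033 protein-coding genes, which include genes that these cells do not express, 7.81% held a region in either list, so holding none was the common case. Of 7 genes of protein phosphatase 6, ANKRD52 held regions in both lists and the other 6 held none: PPP6C, the regulatory subunit genes PPP6R1, PPP6R2 and PPP6R3, and ANKRD28 and ANKRD44, which encode the ankyrin repeat subunits related to ANKRD52. Of 10 catalytic subunit genes of related phosphatases, only the calcineurin gene PPP3CA held a region, 1 with 5xA. None of the 3 casein kinase 2 genes did.

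Of 7 casein kinase 1 genes, CSNK1E had regions with 5xA only and CSNK1D had 2 in each list, while CSNK1A1, CSNK1A1L, CSNK1G1, CSNK1G2 and CSNK1G3 had none. The CSNK1D regions were on the plus strand, in a place shared with the plus-strand gene SLC16A3. In each list the wider of the 2 began before the start of the CSNK1D span, at 82239019 of chromosome 17. The strand of CSNK1D was not known here, so all of these regions may belong to SLC16A3. Without regions that also lie in another gene on the strand, 0 of 7 casein kinase 1 genes had a region. For 57 genes with ANKRD names, 5 were found in both lists, 2 in the 5xA list alone and 1 in the WT list alone. That is 8 of 57 with a region, beside 7.81% of all protein-coding genes, a difference that was not tested. The gene found with WT only is ANKRD30BL, whose region also lies in LOC107985804. Next to ANKRD52 the most were in ANKRD33B, with 4 regions with 5xA and 3 with WT.

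**Figure D4:**
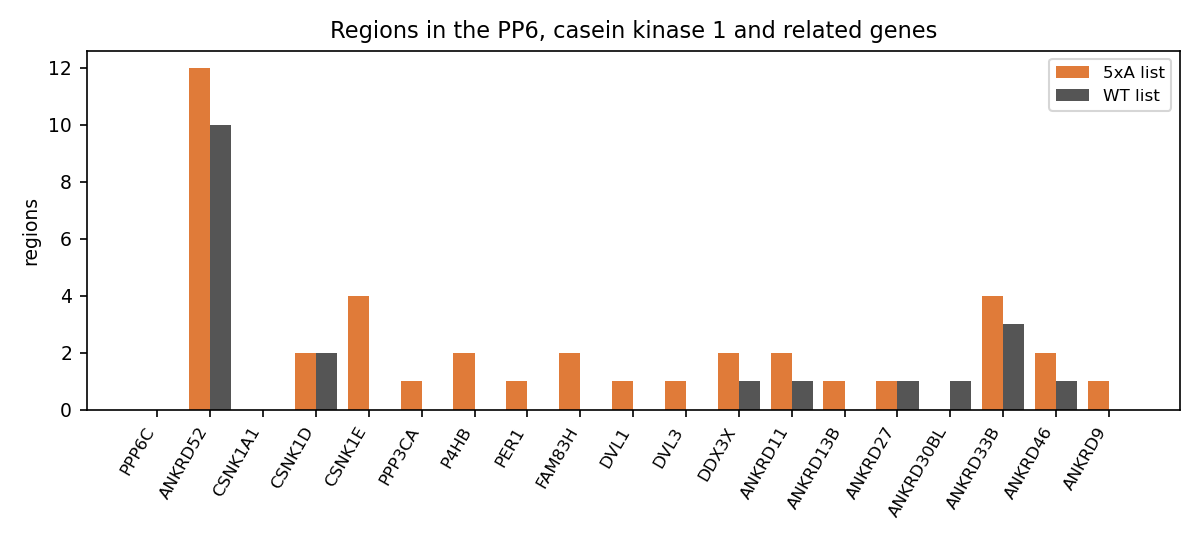
Number of regions in the 5xA list (orange) and in the WT list (grey) for PPP6C, CSNK1A1 and every gene with a region among the phosphatase 6, casein kinase, phosphatase, AGO2-modifying, kinase partner and ANKRD-named lists. ANKRD52 stands at 12 and 10, CSNK1E at 4 and 0, and PPP6C and CSNK1A1 at 0. No other gene of these lists exceeds 4 regions in either list. The regions drawn for CSNK1D may belong to SLC16A3.

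Of 21 partners and substrates of casein kinase 1, 5 held a region, beside the 7.81% of all protein-coding genes, a difference that was not tested. DDX3X, an RNA helicase gene and activator of the kinase, held 2 regions with 5xA and 1 with WT, none of them overlapping. PER1, a clock gene, DVL1 and DVL3, which encode Dishevelled proteins, and FAM83H, which encodes a kinase anchor, held regions with 5xA only, 1 each and 2 in FAM83H. P4HB, a subunit gene of the prolyl hydroxylase of AGO2, held 2 with 5xA and none with WT. Among other enzymes reported to modify AGO2, MAPKAPK2, EGFR, PTPN1, P4HA1 and TRIM71 held none. Having regions with 5xA only was the common case, at 57.0% of all protein-coding genes with any region. Likewise 67.7% of all 5xA regions overlapped no WT region. In every one of these gene lists, as in all protein-coding genes, the median gene held 0 regions in either region list.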

How the data were processed

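Each deposited file is a 6-column region list of one genotype's IPs, named in the labels of both replicates, so the authors pooled replicates. Its other measurement columns are positions, and the deposited score is 0 throughout and was not used. Per the submitters' processing notes the build is hg38, and the tools include TopHat2 and cutadapt 1.9.1. The sources used here do not say which peak caller and threshold were used, how inputs and knockout entered, or how replicates were merged.

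Starts were made 1-based. Gene spans came from RefSeq on GRCh38.p14, which shares the chromosomes of hg38, and strands from the RefSeq promoter table, known for 15842 of 20033 protein-coding genes; the other 4191 were matched on either strand. A region counted as shared with an overlap of 1 base or more on its strand, computed in Python 3.11.15 and checked against bedtools 2.31.1 (944 and 967 shared in both). The overlap code was tested on simulated data. Intervals are exact 95% Clopper-Pearson intervals (scipy 1.17.1).

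The members and lists were chosen with earlier results of these data known. Named were the 4 genes, related genes with a region, the 5 genes nearest ANKRD52 in counts and genes with the counts of CSNK1E; CBX6 and NFIC were added after their values were seen. No genome sequence was used, so a planned search for microRNA seed matches was not run. One gene of the related lists is not reported here. Alternatives changed strand, span, joining, overlap, end window and gene assignment.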

Additional observations from a re-analysis of the deposited data

How the results depend on the processing

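Joining regions within 50 bases left 7 5xA regions, with a median width of 283 bases, and 8 WT regions in ANKRD52, and joining within 200 bases, an alternative chosen after seeing the data, left 4 and 7. The ratio of 5xA to WT regions, 1.20 as deposited, thus turned to 0.875 and 0.571, while over the whole lists it was 2.45 as deposited and 2.42 and 2.33 after joining. Without regions that also lie in another gene on the strand, CSNK1E had 0 regions, since all 4 also lie in TPTEP2-CSNK1E, and the casein kinase 1 list had 0 genes with a region. With a window of 2 kb, 25% of 5xA and 20% of WT regions of ANKRD52 were near the gene end, and with 10 kb 100% of each. The other 73 values from alternatives stayed within 1.5 times the count, width or bases covered, or inside the interval. Many of the 73 were values of 0 that stayed 0, for which joining and gene assignment could change nothing. The intervals are also wide, so this number is no measure of robustness. Among the 73, a reciprocal overlap of 50% left 58.3% of 5xA and 70.0% of WT regions of ANKRD52 shared. No paired analysis was possible because each list pools its replicates. Depth is unknown, so a missing region sets no upper limit on binding.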
